A study of Mus musculus with 6 samples.

Results

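Matricellular and adhesive glycoproteins of the extracellular matrix were followed in inguinal subcutaneous white adipose tissue (SC-WAT) through the mRNA levels of 10 genes, *Fn1*, *Postn*, *Tnc*, *Tnxb*, *Thbs1*, *Thbs2*, *Sparc*, *Sparcl1*, *Aebp1* and *Mfap4*. They were chosen by name, with earlier results of these data known, and each was found once among 47069 gene identifiers after Ensembl IDs were matched to the GENCODE M21 annotation of GRCm38. RNA was sequenced from the fat pads of 3 *Egr1*+/+ and 3 *Egr1*-/- mice, all C57BL/6 females (C57BL/6 J in the methods of the study) aged 2 weeks, with 1 library per mouse. In the *Egr1*-/- mice both copies of *Egr1* carried a *LacZ* insertion in the 5' untranslated region and a frameshift upstream of the DNA-binding domain, in all tissues, so effects arising inside and outside the fat pad cannot be told apart. The *Egr1*+/+ mice carried neither change. The mice came from several litters and included a pair of littermates of opposite genotypes, without a record of which mice these were. The comparison addressed how the loss of EGR1 bears on the matrix genes of SC-WAT.

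EGR1 is a zinc-finger transcription factor that cells make rapidly in response to growth factors and mechanical load. The matrix of adipose tissue surrounds each adipocyte with collagens and glycoproteins, made mainly by fibroblasts and adipocyte progenitors and in part by adipocytes and blood vessels. Fibronectin (*Fn1*) is an adhesive glycoprotein that cells assemble into fibrils and grip through integrins. Matricellular proteins such as periostin, the tenascins, the thrombospondins and SPARC are secreted into the matrix but serve less as scaffold than as modulators of how cells attach to it, how collagen fibrils form and which growth factors are released. AEBP1 binds fibrillar collagen, and MFAP4 is a partner of elastic fibres.

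All 10 genes passed the filter on low counts, and all 10 had a lower estimated level in *Egr1*-/- mice, with log2 fold changes between -1.05 (*Mfap4*) and -0.35 (*Sparcl1*) and a median of -0.68. Over the 17667 genes tested the median was 0.0011. None passed the threshold of 0.05 on p-values adjusted over all genes (quasi-likelihood test of edgeR, adjusted by Benjamini-Hochberg), which 3 genes of the transcriptome passed, or 0.017%. At an unadjusted p under 0.05, 9 of the 10 were lower, against 990 of all genes tested, or 5.6%, and 0 were higher, against 5.06%. In DESeq2, the count model used by the study, 5 of the 10 (*Fn1*, *Postn*, *Sparc*, *Aebp1* and *Mfap4*) were lower at an adjusted p under 0.05, against 1.34% of all genes tested. An alternative chosen after seeing the data left out the mouse richest in skeletal muscle RNA of each genotype. There 5 of the 10 were lower at an unadjusted p under 0.05 in edgeR (*Fn1*, *Postn*, *Tnc*, *Aebp1* and *Mfap4*), against 4.8% of the 18100 genes tested in that fit. For 6 of the 10 every *Egr1*-/- mouse was below every *Egr1*+/+ mouse, against 8.1% of all genes. No member lay above in all *Egr1*-/- mice, an order found for 8.15% of all genes. Since the 10 genes were chosen with results from these mice known, and the study itself names *Fn1* and *Postn*, none of these counts is independent evidence of their direction.

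The libraries held between 29661984 and 42357981 counts on genes, of which mitochondrial genes took 50% to 66.3%. *Egr1* itself drew 353, 241 and 711 counts from *Egr1*+/+ pads against 103, 84 and 57 from *Egr1*-/- pads, so transcript from the altered locus was still counted, and the genotypes did not overlap. Levels are in CPM, which are counts scaled by sequencing depth and by a factor for library composition (TMM). *Egr1*-/- replicate 1 had the largest library and mitochondrial share. Skeletal muscle genes varied between the libraries of both genotypes. The summed CPM of 9 markers ran from 209.7 to 3352 in *Egr1*+/+ mice and from 103 to 2760.3 in *Egr1*-/- mice. Adipocyte markers were high in every library, with *Adipoq* at 718 to 920.2 CPM in *Egr1*+/+ mice and at 551 to 686 CPM in *Egr1*-/- mice.

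Upstream sequences were examined because the members shared a direction in mice without a DNA-binding factor. The RefSeq promoter table for GRCm38.p6 holds windows for 6 of the 10 genes, 8 windows in all, since *Postn* and *Tnc* have a pair each. *Fn1*, *Thbs1*, *Sparcl1* and *Mfap4* have no entry. The 250 bases before an annotated start are shown for *Tnc*, *Tnxb* and *Postn*. *Tnc* is the only member whose windows hold a searched EGR1 word, and *Tnxb* the only one with an AP-1 word. *Postn* has a TATA word close to the start shown. Sequences read 5' to 3' on the strand of the gene, and capitals mark the matched words.

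*Tnc* (GRCm38.p6, chr4:64047016-64047265, minus strand):
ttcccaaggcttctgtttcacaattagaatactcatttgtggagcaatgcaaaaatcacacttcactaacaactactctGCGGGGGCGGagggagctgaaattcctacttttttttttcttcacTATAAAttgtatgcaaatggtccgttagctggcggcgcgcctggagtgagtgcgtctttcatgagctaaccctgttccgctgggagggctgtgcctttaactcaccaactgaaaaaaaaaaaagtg

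*Tnxb* (GRCm38.p6, chr17:34670285-34670534, plus strand):
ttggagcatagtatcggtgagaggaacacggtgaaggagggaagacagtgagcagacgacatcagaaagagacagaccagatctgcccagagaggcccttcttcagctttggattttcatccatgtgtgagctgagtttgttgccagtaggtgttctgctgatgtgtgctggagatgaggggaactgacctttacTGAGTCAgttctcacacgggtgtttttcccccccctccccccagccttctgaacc

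*Postn* (GRCm38.p6, chr3:54360857-54361106, plus strand):
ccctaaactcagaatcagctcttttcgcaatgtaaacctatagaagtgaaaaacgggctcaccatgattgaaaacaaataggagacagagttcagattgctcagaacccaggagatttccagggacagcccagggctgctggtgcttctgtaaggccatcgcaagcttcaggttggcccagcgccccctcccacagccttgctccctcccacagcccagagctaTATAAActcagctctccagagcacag

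In *Tnc* the EGR1 word GCGGGGGCG stands 171 to 163 bases before the start and overlaps the SP1 word GGGCGG at 167 to 162 bases. TATAAA follows at 126 to 121 bases. Before the other annotated *Tnc* start the same words stand at 250 to 242, 246 to 241 and 205 to 200 bases. Searched on both strands of the 250 upstream bases in all 32851 windows, GCGGGGGCG was present in 2.57% and GGGCGG in 32.7%. The other EGR1 word, GCGTGGGCG, was in 0 of the 8 members' windows and in 0.536% of all windows. The AP-1 word TGANTCA stands 55 to 49 bases before the *Tnxb* start and was in 6.75% of all windows. In *Postn* TATAAA stands 26 to 21 bases before the start shown, and the other *Postn* window does not hold it. *Thbs2* holds it on the opposite strand, 126 to 121 bases upstream, and 12.4% of all windows have it. The TEAD word GGAATG was in 0 of 8 against 12.6%. These are matches of letters in short windows, and binding was not measured here.

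**Figure D1:**
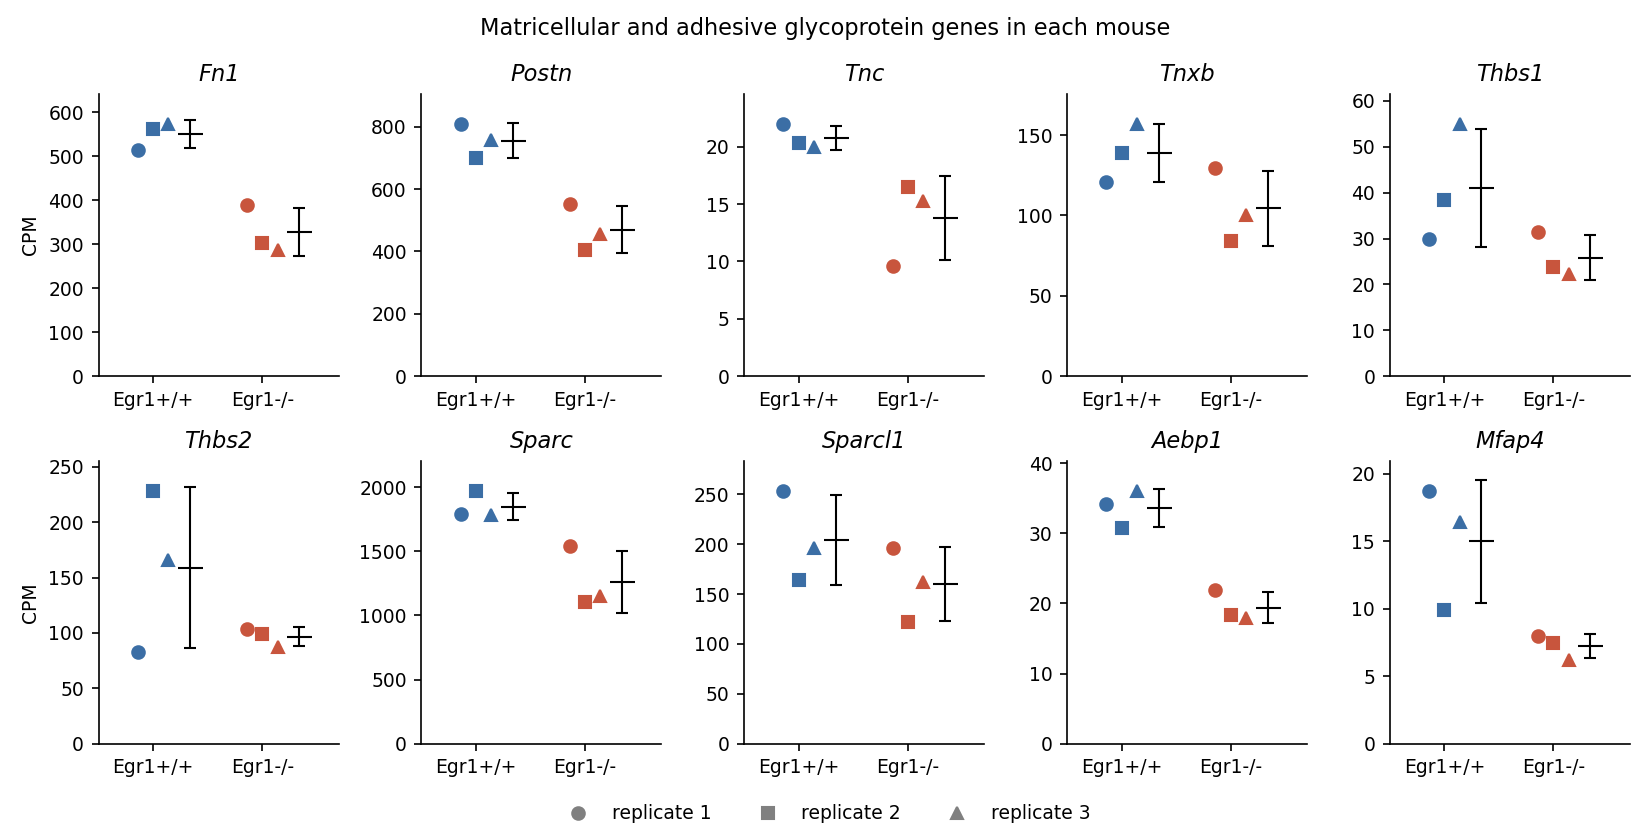
Level of each gene in each mouse, in CPM on linear axes that start at 0, with *Egr1*+/+ mice in blue and *Egr1*-/- mice in red. Symbols stand for replicate numbers and bars for the mean and SD of 3 mice. The genotypes separate fully for *Fn1*, *Postn*, *Tnc*, *Sparc*, *Aebp1* and *Mfap4* and overlap for *Tnxb*, *Thbs1*, *Thbs2* and *Sparcl1*.

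*Fn1* (ENSMUSG00000026193, GRCm38 chr1:71585520-71653200) encodes fibronectin. Its level was 514, 562 and 574 CPM in *Egr1*+/+ replicates 1 to 3 and 389.7, 304 and 288 CPM in *Egr1*-/- replicates 1 to 3. All *Egr1*-/- mice lay below all *Egr1*+/+ mice, and replicate 1 was the nearest to the wild-type range. The means were 550.0 ± 31.5 and 327 ± 54.9 CPM (SD, n = 3 each), a level 40.5% lower in *Egr1*-/- mice. The log2 fold change was -0.75 (standard error 0.150, edgeR unadjusted p = 0.000725, adjusted p = 0.162), and the DESeq2 adjusted p was 0.000164. These values rest on 8901 to 24742 counts per mouse.

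*Postn* (ENSMUSG00000027750, chr3:54361109-54391037) encodes periostin, a fasciclin-domain protein that binds integrins, collagen and tenascin-C. It was at 809.5, 699 and 759 CPM in *Egr1*+/+ mice and at 551, 405 and 455 CPM in *Egr1*-/- mice. The genotypes were again separate, with *Egr1*-/- replicate 1 highest in its group. The means of 756 ± 55.1 and 471 ± 74.1 CPM (SD, n = 3 each) gave a difference on the log2 scale of -0.68 (standard error 0.152, edgeR unadjusted p = 0.00147, adjusted p = 0.193). The DESeq2 adjusted p was 0.000802. The ratio of *Fn1* to *Postn* counts, which needs no scaling between libraries, was 0.635, 0.803 and 0.756 in *Egr1*+/+ mice against 0.707, 0.749 and 0.632 in *Egr1*-/- mice. The ranges of the ratio overlapped between the genotypes.

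The tenascins are large oligomeric glycoproteins that differ in setting, tenascin-C (*Tnc*) being made in development, injury and around tendon and tenascin-X (*Tnxb*) being bound to collagen fibrils in mature connective tissue. *Tnc* (ENSMUSG00000028364, chr4:63959785-64047015) was at 22.0, 20.3 and 20.0 CPM in *Egr1*+/+ mice and at 9.64, 16.5 and 15.3 CPM in *Egr1*-/- mice. The wild-type values were close together, and the lowest *Egr1*-/- value was that of replicate 1, which for the other 9 members was the highest of its group. The means were 20.8 ± 1.06 and 13.8 ± 3.66 CPM (SD, n = 3 each), a log2 difference of -0.59 (standard error 0.188, edgeR unadjusted p = 0.0115, adjusted p = 0.305). Without *Egr1*-/- replicate 1 the log2 fold change of *Tnc* was -0.39 (edgeR unadjusted p = 0.0138). Its counts ran from 321 to 864 per mouse.

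*Tnxb* (ENSMUSG00000033327, chr17:34670535-34719815) was at 121, 139 and 157 CPM in *Egr1*+/+ mice and at 129.5, 83.8 and 100 CPM in *Egr1*-/- mice. *Egr1*-/- replicate 1 lay above *Egr1*+/+ replicate 1, and the other *Egr1*-/- mice lay below the wild-type range. The means of 139 ± 17.5 and 104 ± 23.2 CPM (SD, n = 3 each) gave a difference on the log2 scale of -0.41 (standard error 0.174, edgeR unadjusted p = 0.0421, adjusted p = 0.447), which was -0.27 without *Egr1*-/- replicate 2 and -0.59 without *Egr1*-/- replicate 1. Of the 50-base words in its transcripts 6.41% also occur in *Tnxa*, a near-identical partial copy, which itself had 2 or 3 counts per mouse. The *Tnxb* to *Tnc* count ratio was 5.52, 6.82 and 7.81 in *Egr1*+/+ mice against 13.4, 5.08 and 6.55 in *Egr1*-/- mice, with replicate 1 standing apart.

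The thrombospondins are multimeric glycoproteins that bind CD36 and CD47 on cells, and thrombospondin-1 can release active TGF-β from its latent form. *Thbs1* (ENSMUSG00000040152, chr2:118111876-118127133) was at 29.8, 38.3 and 55.0 CPM in *Egr1*+/+ mice and at 31.4, 23.7 and 22.3 CPM in *Egr1*-/- mice. The wild-type mice were widely spread, and the lowest of them was below *Egr1*-/- replicate 1. The means were 41.0 ± 12.8 and 25.8 ± 4.87 CPM (SD, n = 3 each), which differed by -0.67 on the log2 scale (standard error 0.223, edgeR unadjusted p = 0.0148, adjusted p = 0.325). It was -0.40 without *Egr1*+/+ replicate 3, the highest mouse, where the unadjusted p was 0.0669.

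*Thbs2* (ENSMUSG00000023885, chr17:14665500-14694235) was at 82.7, 228 and 166 CPM in *Egr1*+/+ mice and at 104, 99.2 and 86.9 CPM in *Egr1*-/- mice. It varied more among wild-type mice than any other member, 2.76-fold between the highest and the lowest, and *Egr1*+/+ replicate 1 was the lowest of all 6 mice. The *Egr1*-/- mice lay close together. The means were 159 ± 72.9 and 96.7 ± 8.84 CPM (SD, n = 3 each), which differed by -0.72 on the log2 scale (standard error 0.300, edgeR unadjusted p = 0.0405, adjusted p = 0.444). Leaving out *Egr1*+/+ replicate 2 brought it to -0.36 (unadjusted p = 0.187), and leaving out *Egr1*+/+ replicate 1 brought it to -1.04. The size of the *Thbs2* difference thus moved with single wild-type mice. The *Thbs2* to *Thbs1* count ratio was 2.78, 5.96 and 3.02 in *Egr1*+/+ mice against 3.32, 4.18 and 3.90 in *Egr1*-/- mice.

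SPARC, also called osteonectin, binds collagen and affects how it is processed and assembled, and SPARCL1 (hevin) is its close relative, prominent in blood vessels and brain. *Sparc* (ENSMUSG00000018593, chr11:55394500-55423183) was at 1790.2, 1968 and 1781 CPM in *Egr1*+/+ mice and at 1539, 1101 and 1149 CPM in *Egr1*-/- mice. It was the 20th most counted of the genes tested in *Egr1*+/+ mice, and the genotypes did not overlap. The means of 1846 ± 105 and 1263 ± 240.0 CPM (SD, n = 3 each) gave a difference on the log2 scale of -0.55 (standard error 0.168, edgeR unadjusted p = 0.00966, adjusted p = 0.291), and the DESeq2 adjusted p was 0.0201.

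*Sparcl1* (ENSMUSG00000029309, chr5:104079111-104113733) was at 253, 164 and 196 CPM in *Egr1*+/+ mice and at 196, 122 and 162 CPM in *Egr1*-/- mice. The ranges overlapped over much of their length. The means were 204 ± 45.3 and 160.2 ± 37.2 CPM (SD, n = 3 each), and the log2 fold change of -0.35 (standard error 0.208, edgeR unadjusted p = 0.125, adjusted p = 0.603) was the smallest in size of the 10. It was -0.18 without *Egr1*+/+ replicate 1 and -0.19 without *Egr1*-/- replicate 2. *Sparcl1* was the only member that missed the unadjusted threshold. The *Sparc* to *Sparcl1* count ratio was 7.07, 12 and 9.10 in *Egr1*+/+ mice against 7.83, 9.01 and 7.09 in *Egr1*-/- mice, so the data do not show that the relatives differed in response.

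AEBP1, in its secreted form also known as aortic carboxypeptidase-like protein, carries a collagen-binding discoidin domain. *Aebp1* (ENSMUSG00000020473, chr11:5861947-5872088) was at 34.2, 30.7 and 36.0 CPM in *Egr1*+/+ mice and at 21.9, 18.3 and 17.9 CPM in *Egr1*-/- mice. Both genotypes were tight and far apart. The means of 33.6 ± 2.74 and 19.4 ± 2.17 CPM (SD, n = 3 each) gave a difference on the log2 scale of -0.80 (standard error 0.125, edgeR unadjusted p = 0.000122, adjusted p = 0.146), the lowest p of the 10. The DESeq2 adjusted p was 0.000108. With 1 mouse left out the log2 fold change stayed between -0.89 and -0.74, and without *Egr1*-/- replicate 1 *Aebp1* passed the edgeR threshold (adjusted p = 0.0484).

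MFAP4 is a small fibrinogen-related glycoprotein that binds elastin, fibrillin and integrins. *Mfap4* (ENSMUSG00000042436, chr11:61485431-61488900) was at 18.7, 9.89 and 16.4 CPM in *Egr1*+/+ mice and at 7.98, 7.49 and 6.21 CPM in *Egr1*-/- mice. *Egr1*+/+ replicate 2 lay near the *Egr1*-/- mice but above all of them. The means of 15.0 ± 4.55 and 7.23 ± 0.917 CPM (SD, n = 3 each) amounted to a level 51.8% lower and a log2 difference of -1.05 (standard error 0.228, edgeR unadjusted p = 0.00125, adjusted p = 0.183). The DESeq2 adjusted p was 0.00206. *Mfap4* shares 89 exon bases, 4.63% of its exons, with *Mapk7* on the opposite strand, and *Mapk7* had 108 to 186 counts per mouse. Antisense genes also share 292 exon bases with *Fn1* (*Apol7d*, 2 to 9 counts per mouse), 176 with *Tnc* and 208 with *Thbs1*, and without a stated strand setting reads there cannot be assigned to a strand. The *Aebp1* to *Mfap4* count ratio was 1.83, 3.10 and 2.2 in *Egr1*+/+ mice against 2.74, 2.45 and 2.88 in *Egr1*-/- mice.

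For the single members, exact two-sided permutation tests over mice gave p = 0.1 for the 6 genes with separate genotypes, the smallest p that 3 mice against 3 allow. That exact test gave p = 0.200 for *Tnxb* and *Thbs1*, 0.300 for *Sparcl1* and 0.400 for *Thbs2*. The 5 within-mouse count ratios named above were tested as well. Their differences between genotypes on the log2 scale were -0.07 for *Fn1* over *Postn*, 0.20 for *Tnxb* over *Tnc*, 0.04 for *Thbs2* over *Thbs1*, -0.21 for *Sparc* over *Sparcl1* and 0.21 for *Aebp1* over *Mfap4*, with exact permutation p from 0.500 to 1 and Benjamini-Hochberg values from 0.833 to 1 over the 5 ratios. With 3 mice a group this does not show that the paired genes responded alike.

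**Figure D2:**
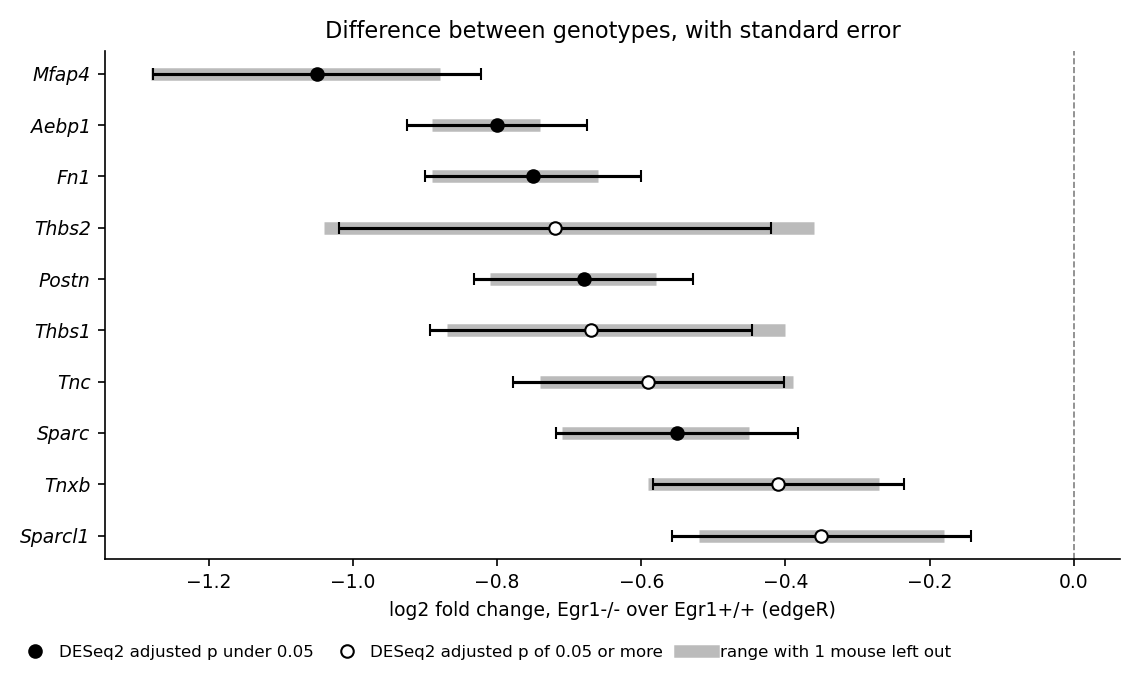
Log2 fold change of each gene between *Egr1*-/- and *Egr1*+/+ mice (points, edgeR) with its standard error (black bars) and the range of estimates with 1 mouse left out at a time (grey bars). Filled points passed an adjusted p of 0.05 in DESeq2, and all estimates and all grey bars lie below 0.

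Levels between genes were compared as mean CPM per kilobase of annotated exons. The exons of all annotated transcripts of a gene were joined, 17 for *Fn1*, 9 for *Postn* and 2 for *Sparcl1*. Which transcripts were expressed was not measured, so the order between genes is approximate. In *Egr1*+/+ mice *Sparc* led with 487 CPM per kilobase, followed by *Postn* with 86.9, *Sparcl1* with 69.6, *Fn1* with 47.1, *Thbs2* with 22.7 and *Tnxb* with 11.4. *Aebp1* with 8.29, *Mfap4* with 7.79 and *Thbs1* with 6.75 came next, and *Tnc* was lowest with 2.68. The neighbours *Postn* and *Sparcl1*, *Thbs2* and *Tnxb*, *Aebp1* and *Mfap4*, and *Mfap4* and *Thbs1* overlapped over the *Egr1*+/+ mice, and the other neighbours in this order did not. In *Egr1*-/- mice the order ran from *Sparc* (333 CPM per kilobase) over *Sparcl1* (54.5), *Postn* (54.1), *Fn1* (28.0), *Thbs2* (13.8), *Tnxb* (8.55), *Aebp1* (4.77), *Thbs1* (4.25) and *Mfap4* (3.76) to *Tnc* (1.78). *Sparcl1* and *Postn*, *Aebp1* and *Thbs1*, and *Thbs1* and *Mfap4* overlapped there. The places exchanged between genotypes all involved genes whose ranges overlapped.

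Summed over the 10 genes, the level was 3676, 3859 and 3760.1 CPM in *Egr1*+/+ mice and 2980.5, 2181 and 2303 CPM in *Egr1*-/- mice, with *Sparc* contributing 47.4% to 51.6%. As a share of counts outside the mitochondrial genes, which does not depend on the composition scaling, the members took 0.840%, 0.887% and 0.879% in *Egr1*+/+ mice against 0.695%, 0.537% and 0.528% in *Egr1*-/- mice. Both measures kept the genotypes apart and put *Egr1*-/- replicate 1 nearest to the wild-type mice. Among *Egr1*-/- mice replicate 1 was highest for 9 of the 10 genes, whereas among *Egr1*+/+ mice no mouse was highest for more than 4.

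Markers of fibroblasts and adipocyte progenitors went in the same direction as the members. The summed level of 9 such markers (*Pdgfra*, *Pdgfrb*, *Thy1*, *Cd34*, *Ly6a*, *Dpp4*, *Pi16*, *Dpt* and *Cd248*) was 944, 862 and 895 CPM in *Egr1*+/+ mice and 717, 506 and 502 CPM in *Egr1*-/- mice, and *Egr1*-/- replicate 1 was again the highest of its group. All 9 had a log2 fold change below 0, with a median of -0.53, 7 at an unadjusted p under 0.05 and 0 at an adjusted one (edgeR). Of all genes tested 5.6% were lower at the unadjusted threshold. The markers ranged from *Cd248* at -1.01 to *Pdgfrb* at -0.09 and *Thy1* at -0.07. None of the markers was at 0. In whole fat pads, fewer cells of a type and less RNA per cell cannot be told apart.

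Within each mouse the counts of the 10 members divided by those of the 9 stromal markers gave 3.89, 4.47 and 4.2 in *Egr1*+/+ mice against 4.15, 4.31 and 4.58 in *Egr1*-/- mice. The marker sum was weighted to *Dpt* (mean 412 CPM in *Egr1*+/+ mice, log2 fold change -0.74) and *Cd34* (167 CPM, -0.71). *Pdgfrb* (42.5 CPM, -0.09) and *Thy1* (18.1 CPM, -0.07) counted for less, and *Sparc* was the largest part of the members' counts. The genotypes overlapped in the ratio of members to stromal markers, which differed by 0.06 on the log2 scale (exact two-sided permutation p = 0.500). For single genes the same difference was -0.34 for *Mfap4*, -0.13 for *Aebp1*, -0.10 for *Fn1*, -0.03 for *Postn*, 0.03 for *Thbs1*, 0.04 for *Tnc*, 0.06 for *Thbs2*, 0.10 for *Sparc*, 0.24 for *Tnxb* and 0.31 for *Sparcl1*, with exact permutation p between 0.200 and 1. *Mfap4* stood lowest relative to the markers and *Sparcl1* highest, and for neither did the 3 mice of each genotype separate. Relative to endothelial markers the members' ratio was 7.44, 8.67 and 9.59 in *Egr1*+/+ mice against 5.50, 6.00 and 5.80 in *Egr1*-/- mice, without overlap, a log2 difference of -0.56. Relative to adipocyte markers it was 0.587, 0.598 and 0.626 against 0.507, 0.449 and 0.393, a difference of -0.43 and again without overlap (exact permutation p = 0.1 for both). Relative to macrophage markers the difference was -0.10 and the ranges overlapped. After Benjamini-Hochberg adjustment over these 14 ratios, which were chosen after the values had been seen, the smallest p was 0.600.

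Summed marker RNA of some other cell types also differed between the genotypes, while cell numbers were not measured. The 7 macrophage markers summed to 290.3 to 392 CPM in *Egr1*+/+ mice and to 225 to 263 in *Egr1*-/- mice, with 7 of 7 below 0 and 4 of them lower at an unadjusted p under 0.05, against 5.6% of all genes. The 6 Schwann cell markers summed to 240.4 to 343 against 166 to 213 CPM, and the 5 blood markers to 175 to 264 against 85.7 to 165 CPM. Beige adipocyte markers went the opposite way, from 521 to 668 to 919.6 to 1539 CPM, with all 6 tested markers higher at an unadjusted p under 0.05, against 5.06% of all genes. No macrophage or beige marker passed the adjusted threshold in edgeR. The 8 general adipocyte markers summed to 6007 to 6458 CPM in *Egr1*+/+ mice and to 4861 to 5876 in *Egr1*-/- mice, without overlap. *Fabp4* (mean 3928 CPM in *Egr1*+/+ mice) was the largest part of that sum. These markers were mixed, with 5 below 0 and 3 above. At an unadjusted p under 0.05, 2 were lower and 1 was higher, against 5.6% and 5.06% of all genes. The endothelial sum was 392 to 494 CPM in *Egr1*+/+ mice and 364 to 542 in *Egr1*-/- mice, and the mural sum was 427 to 634 against 363 to 565, both overlapping. Of the 7 mural markers 6 were below 0 and 1 was above, *Cspg4* (log2 fold change 0.65, edgeR unadjusted p = 0.00344). Lymphocyte markers summed to 396 to 432 and 308 to 654 CPM, mammary epithelial markers to 3.11 to 14 and 8.31 to 11.2, and tendon markers to 3.06 to 4.25 and 3.10 to 4.2. All 7 lymphocyte markers were above 0, with a median of 0.48. At an unadjusted p under 0.05, 1 of them was higher, against 5.06% of all genes. *Ptprc* (mean 332 CPM in *Egr1*+/+ mice, log2 fold change 0.08) was the largest part of the lymphocyte sum. The part of these cell types in the members' difference was not tested.

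**Figure D3:**
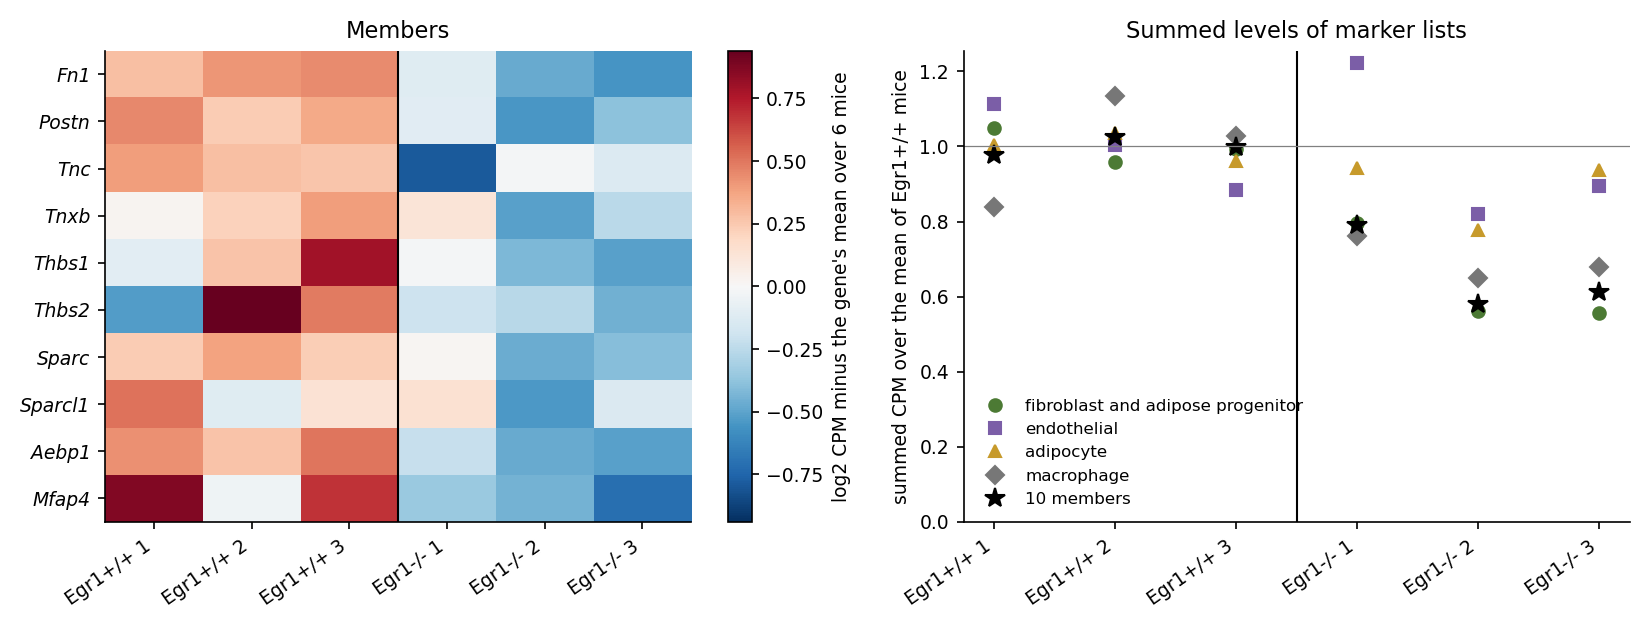
Left, log2 CPM of each gene in each mouse minus the mean of that gene over 6 mice, from lower (blue) to higher (red). Right, summed CPM of the 10 members (stars) and of 4 marker lists in each mouse, over the mean of the *Egr1*+/+ mice, on an axis from 0. The members and the fibroblast and progenitor markers lie together in *Egr1*-/- mice, below the endothelial and adipocyte markers and near the macrophage markers.

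The profile shared by the members over the 6 mice was described by centring each gene's log2 CPM and averaging the 10 genes. *Fn1* lay closest to this mean with a root mean square distance of 0.0863, then *Aebp1* (0.0938), *Postn* (0.103), *Sparc* (0.115), *Tnxb* (0.165) and *Thbs1* (0.218). *Sparcl1* (0.284), *Mfap4* (0.336), *Tnc* (0.339) and *Thbs2* (0.422) were farthest. Of 14346 protein-coding genes tested outside the members, the 5 nearest to the mean profile were *Fap* (distance 0.0313, log2 fold change -0.68), *Plxdc2* (0.0381, -0.69), *Lpar1* (0.0538, -0.65), *Sulf1* (0.0646, -0.60) and *Dnm1* (0.0665, -0.74). *Fap*, a membrane protease of activated fibroblasts, was at 27.6, 27.1 and 30.7 CPM in *Egr1*+/+ mice and at 20.4, 16.2 and 16.7 CPM in *Egr1*-/- mice. Being picked for likeness, these genes carry no test.

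Genes related to the members by family, binding or receptor were taken in 8 lists of 82 genes, of which 78 were tested. They are called lower or higher here at an edgeR unadjusted p under 0.05, as 5.6% and 5.06% of all genes were. By this measure 18 of the 78 were lower and 1 was higher, and the median log2 fold change was -0.16. None passed the edgeR threshold on adjusted p. In DESeq2 11 were lower at an adjusted p under 0.05, against 1.34% of all genes. Every *Egr1*-/- mouse was below every *Egr1*+/+ mouse for 20 of the 78 and above for 0, against 8.1% and 8.15% of all genes.

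Among the thrombospondin, tenascin and periostin relatives, 1 of 5 was lower and the median was -0.25. That median was -0.08 without *Egr1*+/+ replicate 2 and -0.17 without *Egr1*-/- replicate 1. *Thbs3* was at 25.9 ± 0.692 CPM in *Egr1*+/+ mice and at 16.2 ± 4.14 CPM in *Egr1*-/- mice (SD, n = 3 each; log2 fold change -0.67, standard error 0.170, edgeR adjusted p = 0.227, DESeq2 adjusted p = 0.0209). *Tgfbi*, a fasciclin-domain relative of periostin, had a log2 fold change of -0.25 (adjusted p = 0.469), and *Tnn*, at or below 0.581 CPM in all mice, had 0.63 (adjusted p = 0.741). Among the SPARC relatives 2 of 5 were lower and the median was -0.16, which ran from -0.34 without *Egr1*+/+ replicate 1 to 0.06 without *Egr1*+/+ replicate 2. *Fstl1* was at 601, 647 and 662 CPM against 449, 287 and 310.2 CPM (log2 fold change -0.87, DESeq2 adjusted p = 0.000189). *Smoc1* was at 29.6, 26.2 and 31.9 CPM against 17.6, 19.8 and 20.0 CPM (log2 fold change -0.61, DESeq2 adjusted p = 0.00568). For these relatives the genotypes of *Thbs3*, *Fstl1* and *Smoc1* were separate, while *Spock2* overlapped with a log2 fold change of -0.16.

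The CCN proteins are small matricellular proteins, and 1 of the 4 tested was lower, with a median of -0.41, which was -0.22 without *Egr1*+/+ replicate 2 and -0.67 without *Egr1*-/- replicate 3. *Ccn3* was at 13.6, 8.92 and 14.7 CPM in *Egr1*+/+ mice and at 7.65, 5.20 and 4.33 CPM in *Egr1*-/- mice (log2 fold change -1.12, standard error 0.252, edgeR adjusted p = 0.193, DESeq2 adjusted p = 0.00237). *Ccn4* (log2 fold change -0.55) and *Ccn1* (-0.27) had overlapping genotypes. Of 12 other adhesive and matricellular glycoproteins 5 were lower and 1 was higher, with a median of -0.35. The 3 with the lowest p were *Srpx2* (-0.99), *Ecm2* (-0.64) and *Igfbp7* (-0.52). The gene that was higher was *Mfge8*, which encodes an integrin-binding bridge for the uptake of dying cells, at 36.0, 41.3 and 43.8 CPM in *Egr1*+/+ mice and 41.7, 57.0 and 58.2 CPM in *Egr1*-/- mice (log2 fold change 0.37, edgeR unadjusted p = 0.0350). It was named after its value had been seen.

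Of 9 relatives and elastic fibre partners of AEBP1 and MFAP4, 4 were lower, 0 were higher and the median was -0.45. It was -0.72 without *Egr1*-/- replicate 1 and -0.17 without the muscle-rich mouse of each genotype. *Mfap2*, a microfibril component, was at 5.73, 6.19 and 6.96 CPM in *Egr1*+/+ mice and at 3.99, 2.16 and 2.49 CPM in *Egr1*-/- mice (log2 fold change -1.13, edgeR adjusted p = 0.185). *Fbn1*, fibrillin-1, the main protein of microfibrils, was at 516, 568 and 505 CPM against 365, 244 and 252 CPM (log2 fold change -0.88, edgeR adjusted p = 0.160). Both had separate genotypes, as did *Cpxm1*, a carboxypeptidase-like relative of AEBP1 (-0.45).

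The medians of the cell surface receptors lay nearer to 0 than that of the members, which were chosen with earlier results of these data known. The other lists of matrix genes lay between receptors and members. Their medians were -0.16 for the SPARC relatives and -0.25 for the thrombospondin, tenascin and periostin relatives. They were -0.35 for the other glycoproteins, -0.41 for the CCN family and -0.45 for the AEBP1 and MFAP4 relatives. Of 15 integrin subunits 3 were lower (*Itgb8* -0.39, *Itgb3* -0.36 and *Itga2* -0.45), 0 were higher and the median log2 fold change was -0.13, which was -0.23 without *Egr1*-/- replicate 1 and -0.07 without *Egr1*-/- replicate 3. Of 12 other receptors 2 were lower, the heparan sulphate proteoglycan *Sdc2* (-0.50) and the chaperone *Calr* (-0.39), which binds thrombospondin at the cell surface, and the third by p was *Sdc4* (0.37, unadjusted p = 0.0838). Their median of -0.14 was 0.00 without *Egr1*+/+ replicate 2. Of 16 focal adhesion proteins inside the cell 0 were lower or higher and the median was 0.00 (-0.04 to 0.03 with 1 mouse left out), with *Tns1* (0.27), *Ptk2* (-0.16) and *Parva* (-0.17) the lowest by p. Named after their values had been seen, the fibronectin receptor subunits *Itga5* and *Itgb1* had log2 fold changes of -0.01 and -0.20, and the thrombospondin receptors *Cd36* and *Cd47* had -0.06 and 0.04. Their edgeR adjusted p-values ran from 0.619 to 0.990, and the difference between members and receptors was not itself tested.

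**Figure D4:**
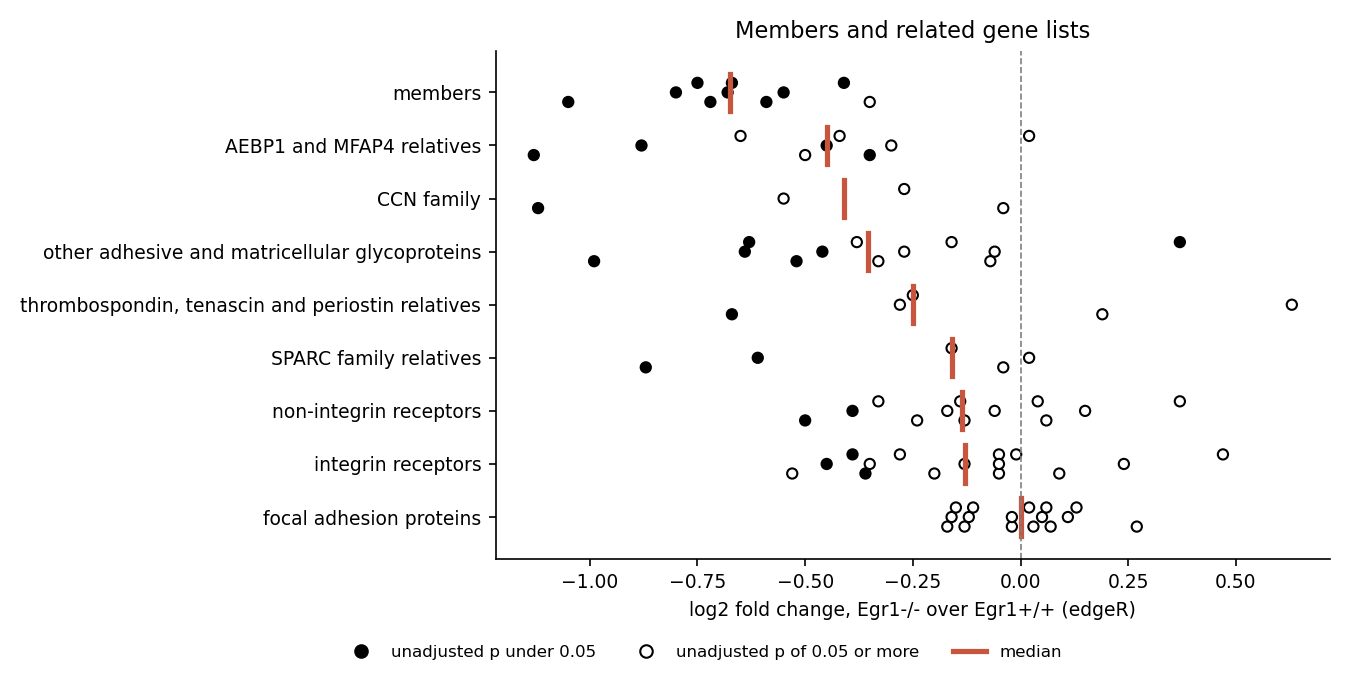
Log2 fold change between *Egr1*-/- and *Egr1*+/+ mice (edgeR) of each tested gene among the members and 8 related lists. Filled points have an unadjusted p under 0.05 and red bars are medians, which run from -0.68 for the members to 0.00 for focal adhesion proteins.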

How the data were processed

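The authors deposited whole-number counts of reads per gene for each mouse, without normalization. Per the labels, reads were mapped with TopHat2 and Bowtie2 and assigned with featureCounts (builds mm10 and GRCm38.p4). The strand and multimapping settings of featureCounts are not given in the sources used here, and the labels and the paper differ on read layout. Total RNA had been depleted of ribosomal RNA before strand-specific libraries were made.

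Identifiers were matched to GENCODE M21, which named 46488 of 47069. The tests used edgeR 4.0.16 under R 4.3.3 (TMM, filterByExpr, quasi-likelihood test, genotype alone), and p-values were adjusted by Benjamini-Hochberg over all 17667 genes tested. Log2 CPM used a prior count of 2. DESeq2 1.42.0 and limma 3.58.1 were alternatives. No library was left out. Replicate pairs were compared by chi-square and none were duplicates (34.4 to 93.6 per degree of freedom). The labels do not say whether the replicate numbers mark litters. Named genes are all members, the 3 lowest p-values of each related list, and the 5 genes nearest the members' profile. *Mfge8*, *Itga5*, *Itgb1*, *Cd36* and *Cd47* fall outside this rule and were named after their values had been seen. Members, lists and markers were chosen with earlier results of these data known. In edgeR, DESeq2 and limma, p-values rest on a gene's spread between these mice, moderated by the spread of the other genes tested. The permutation tests use no such moderation. No p-value covers variation beyond these mice. The study's tissue sections, RT-qPCR, chromatin and cell culture work was not analysed here.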

Additional observations from a re-analysis of the deposited data

How the results depend on the processing

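All 10 members stayed below 0 in every fit. The number of members past the adjusted threshold was 0 in edgeR and stayed 0 with limma-voom, RLE, upper-quartile normalization, mitochondrial genes left out, a filter of 10 counts and the replicate block. It was 5 in DESeq2, 2 with library totals only (*Aebp1* and *Mfap4*) and 7 without a filter on low counts, where the spread was taken from all genes together. With 1 mouse left out it ran from 0 to 1, the 1 being *Aebp1* without *Egr1*-/- replicate 1. Over all 17667 genes the calls numbered 3 in edgeR, 366 in DESeq2, 1 with limma-voom and 0 with upper-quartile normalization. They numbered 79 with library totals only and 0 with the replicate block, over as many genes. Without a filter they were 552 of 38261 genes, and with 1 mouse left out 0 to 59 (59 of 18258 without *Egr1*-/- replicate 1). The cause was not tested. The members' median of -0.68 was -0.86 with library totals only, where the median of all genes was -0.15. Members lower at an unadjusted p under 0.05 numbered 6 without *Egr1*+/+ replicate 3, *Egr1*-/- replicate 2 or *Egr1*-/- replicate 3, and 8 to 9 without another mouse, against 3.8% to 7.26% of all genes in these fits.

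The replicate numbers were not taken as a pairing, since the study describes only a single pair of littermates of opposite genotypes. Same-numbered mice correlated by -0.0888, 0.106 and -0.126 in their deviations from the genotype means. With 3 mice a group these correlations cannot decide whether mice were paired. With the replicate block 8 members were lower at an unadjusted p under 0.05, against 5.89% of all genes. Without the block 9 members were lower, against 5.6%. A setting chosen after seeing the data left out *Egr1*+/+ replicate 2 and *Egr1*-/- replicate 3, the mice with the most skeletal muscle RNA of each genotype. There 0 genes passed the adjusted threshold. In that fit 5 members (*Fn1*, *Postn*, *Tnc*, *Aebp1* and *Mfap4*) were lower at an unadjusted p under 0.05, against 4.8% of all genes. *Sparc* then had a log2 fold change of -0.44 (unadjusted p = 0.105 in edgeR) and *Thbs2* one of -0.29. Of the other values, those of single members and of list medians, 255 were unchanged by these criteria (direction, side of the threshold, spread), 15 passed the threshold only in an alternative and 18 list medians shifted. With 3 mice a group, standard errors of 0.125 to 0.300 on the log2 scale limited which differences could be resolved.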
